A study of Mus musculus with 10 samples.

Results

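Sarm1, the 3 Nmnat genes and 5 further genes of NAD metabolism and axon degeneration were examined in retinal ganglion cells (RGCs) profiled by single cell RNA-seq (scRNA-seq). The genes were chosen by name, with earlier results of these data known. Their symbols were looked up in the count tables: Sarm1, Nmnat1, Nmnat2, Nmnat3, Nampt, Nmrk1, Naprt, Phr1, Mycbp2 and Nadk. Of these 10 symbols, 9 matched a gene, out of 34254 genes in the tables. Phr1 is an older name of Mycbp2, so the symbols stand for 9 genes.

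NAD is a cofactor that neurons must keep renewing along the whole length of their axons. Nampt and Nmrk1 make the intermediate NMN, the Nmnat enzymes turn NMN into NAD, and Sarm1 is an NAD-cleaving enzyme that is held inactive by NAD and activated by NMN, after which the axon degenerates. Nmnat2 is a short-lived protein that is carried from the cell body into the axon, its turnover depends on the ubiquitin ligase that contains Mycbp2, and crushed optic nerve axons are known to persist longer in mice that lack Sarm1.

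The study compared uninjured RGCs with RGCs 2 weeks after optic nerve crush (ONC), an injury that severs the axons of these cells behind the eye. All mice were wild type, of the 129S1/SvImJ strain, 12 weeks old and of both sexes. RGCs were enriched from dissociated retinas by panning on Thy1 after macrophages were depleted, with 10 retinas pooled per batch and 6000 cells loaded per batch for droplet capture. There were 6 uninjured and 4 injured libraries. The labels do not say that the libraries came from separate animals, so the p-values below measure only the spread between these samples, which may be technical.

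The uninjured libraries held 98, 103, 363, 651, 267 and 201 cells, and 2839693, 3423989, 12673923, 23180399, 5686605 and 4674981 unique molecular identifiers (UMIs, each counting 1 captured RNA molecule). The injured libraries held 338, 273, 527 and 471 cells and 5934728, 4698799, 8860536 and 6275218 UMIs. Injured cells were shallower, with a median of 11257 to 14695 UMIs per cell across libraries, against 20437 to 34337 in uninjured libraries. Other properties of the cells also moved with the condition. Malat1, a nuclear RNA, made up a median of 6.37 to 7.78% of the UMIs of a cell in injured libraries and 1.72 to 4.82% in uninjured libraries. Ribosomal protein genes made up 2.80 to 3.26% and 1.42 to 2.62%, and mitochondrially encoded genes 1.48 to 3.15% and 2.84 to 5.63%, respectively. The part of depth and of these shares in the changes described below was tested only where a value is given.

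Injured 3 and 4 shared 421 cell barcodes, and their counts differed by no more than sampling noise: the median chi-square of a gene, relative to that noise, was 0.985. At most 1 barcode was shared by any other 2 libraries, whose ratios ran from 1.47 to 36.2. Injured 3 and 4 were therefore averaged and counted as 1 sample, called injured 3/4, which gave 6 uninjured and 3 injured samples. Counting shared barcodes once, the injured libraries held 1188 distinct barcodes. Among the others, uninjured 1 and 2, 3 and 4, and 5 and 6, and injured 1 and 2, resembled each other more than the remaining libraries, with ratios of 1.82, 1.87, 1.47 and 2.28. No such pair held both conditions, so batch and condition cannot be told apart. UMIs of the reporter mCherry, for which the labels name no vector, were present in 7.99% of injured 1 cells, 15.0% of injured 2 cells, 86.0% of injured 3 cells and 84.3% of injured 4 cells. No uninjured cell of 1683 held one, which allows a share of up to 0.178%, counting error alone. Results are also given without injured 3 and 4 and without injured 1 and 2.

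Marker genes of RGCs and of other retinal cells were examined. Slc17a6 and Rbpms, markers of all RGCs, had UMIs in 100% of the cells of both conditions before any thinning, but the methods of the paper name both genes in the identification of RGCs, so this share is no independent check. The 6 RGC markers summed to 5499 to 7107 counts per 1000000 UMIs (CPM) in uninjured samples and to 3647 to 4986 CPM in injured samples, and the groups did not overlap. Of these 6 genes, Rbpms, Sncg, Pou4f1 and Nefl were lower and Tubb3 higher after injury, whereas Slc17a6 missed the threshold. The summed markers of the other 8 cell classes examined overlapped between the conditions. Amacrine markers, with C1ql1 highest in most libraries, summed to 67.4 to 277 CPM in uninjured and 63.2 to 191 CPM in injured samples, and Muller glia markers, led by Dkk3 in uninjured and Glul in injured libraries, to 112 to 193 and 107 to 133 CPM. Bipolar cell markers, led by Prkca, summed to 74.7 to 141 and 109 to 151 CPM. Microglia and macrophage markers, led by P2ry12, Cx3cr1 or Cd68 in different libraries, summed to 5.80 to 18.9 CPM in uninjured and 15.4 to 25.1 CPM in injured samples. C1qa and Tmem119 had no UMI in any injured library, nor in most uninjured libraries. Rod markers summed to 3.52 to 19.7 and 10.1 to 31.1 CPM, led by Sag in uninjured libraries and by Pde6b in injured 1, 3 and 4, while Gnat1 and Pdc had no UMI in injured 1, 3 and 4. Cone markers, led by different genes in different libraries, summed to 0.214 to 2.47 and 0.169 to 0.426 CPM, astrocyte markers, with S100b highest in most libraries, to 5.55 to 26.0 and 5.22 to 5.96 CPM, and endothelial markers, led by Pecam1 or Flt1, to 0.214 to 4.58 and 1.49 to 4.04 CPM. Cells with 3 or more UMI-positive markers of another class made up 8.46 to 35.6% of uninjured and 2.34 to 13.9% of injured libraries, and the fold changes of the 5 genes past the threshold stayed past it without these cells.

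Levels are given as CPM from UMIs summed over the cells of a sample. These UMIs come from the 3′ end of each RNA and were not scaled to gene length, so the order between genes is an order of captured molecules. In uninjured RGCs, the order of mean levels was Mycbp2, Nmnat2, Nampt, Nadk, Nmrk1, Sarm1, Nmnat1, Nmnat3 and Naprt. The Mycbp2 level was 405 ± 70.6 CPM (SD, n = 6) and the Nmnat2 level was 122 ± 16.4 CPM. Nampt stood at 35.9 ± 6.71 CPM and Nadk at 17.7 ± 2.28 CPM. Only 2 neighbours in this order had overlapping sample ranges, Nadk with Nmrk1 and Nmnat1 with Nmnat3. Nmnat2 was the most abundant of the 3 Nmnat genes and Sarm1 was among the lower members, with 489 UMIs in all uninjured libraries against 7003 for Nmnat2. Naprt, with 14 UMIs in uninjured and 9 in injured libraries, was too sparse for the fit over all genes.

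**Figure D1:**
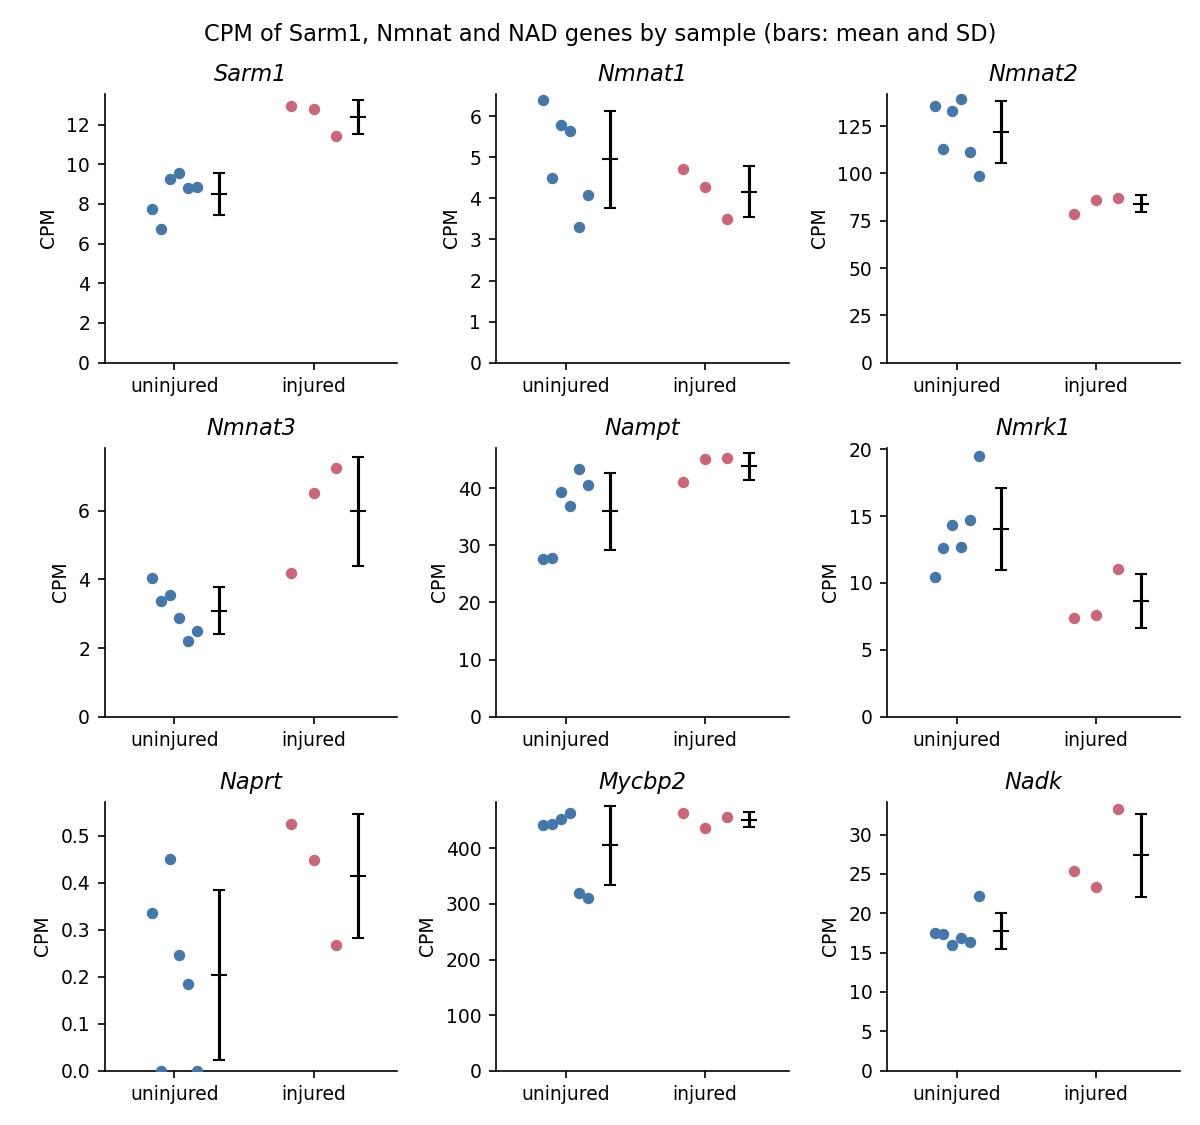
Level of each of the 9 genes in CPM, with 1 point per sample (6 uninjured in blue, injured 1, 2 and 3/4 in red) and the mean and SD beside each group. Sarm1, Nmnat3 and Nadk lie higher and Nmnat2 lower in every injured sample than in every uninjured sample, and the other 5 genes overlap.

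Next, the injury change of these genes was compared with that of all genes. The changes were tested by edgeR on the summed counts, with p-values adjusted over the 14234 genes that held enough counts, and called at an adjusted p under 0.05. Of the 8 members tested, 5 were called, which is 62.5%, against 44% of all genes tested. The 3 higher members were Nmnat3, Nadk and Sarm1, beside 21.3% of all genes, and the 2 lower members were Nmnat2 and Nmrk1, beside 22.7%. The CPM of 4 members did not overlap between conditions, beside 42.9% of all genes. The members were not tested as a group, and 8 genes are too few for these shares to describe one. The median log2 fold change of injured over uninjured was 0.22 over the 8 members and −0.03 over all genes. Without injured 3 and 4, 4 of 8 members were called, beside 5075 of 14386 genes. The count was 2 of 8 without injured 1 alone, beside 4961 of 14378 genes. Without injured 2 alone it was 3 of 8, beside 5174 of 14681 genes, and with similar libraries summed 1 of 8, beside 4181 of 15454. The larger share of members than of all genes was thus not kept without injured 1 or with similar libraries summed.

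**Figure D2:**
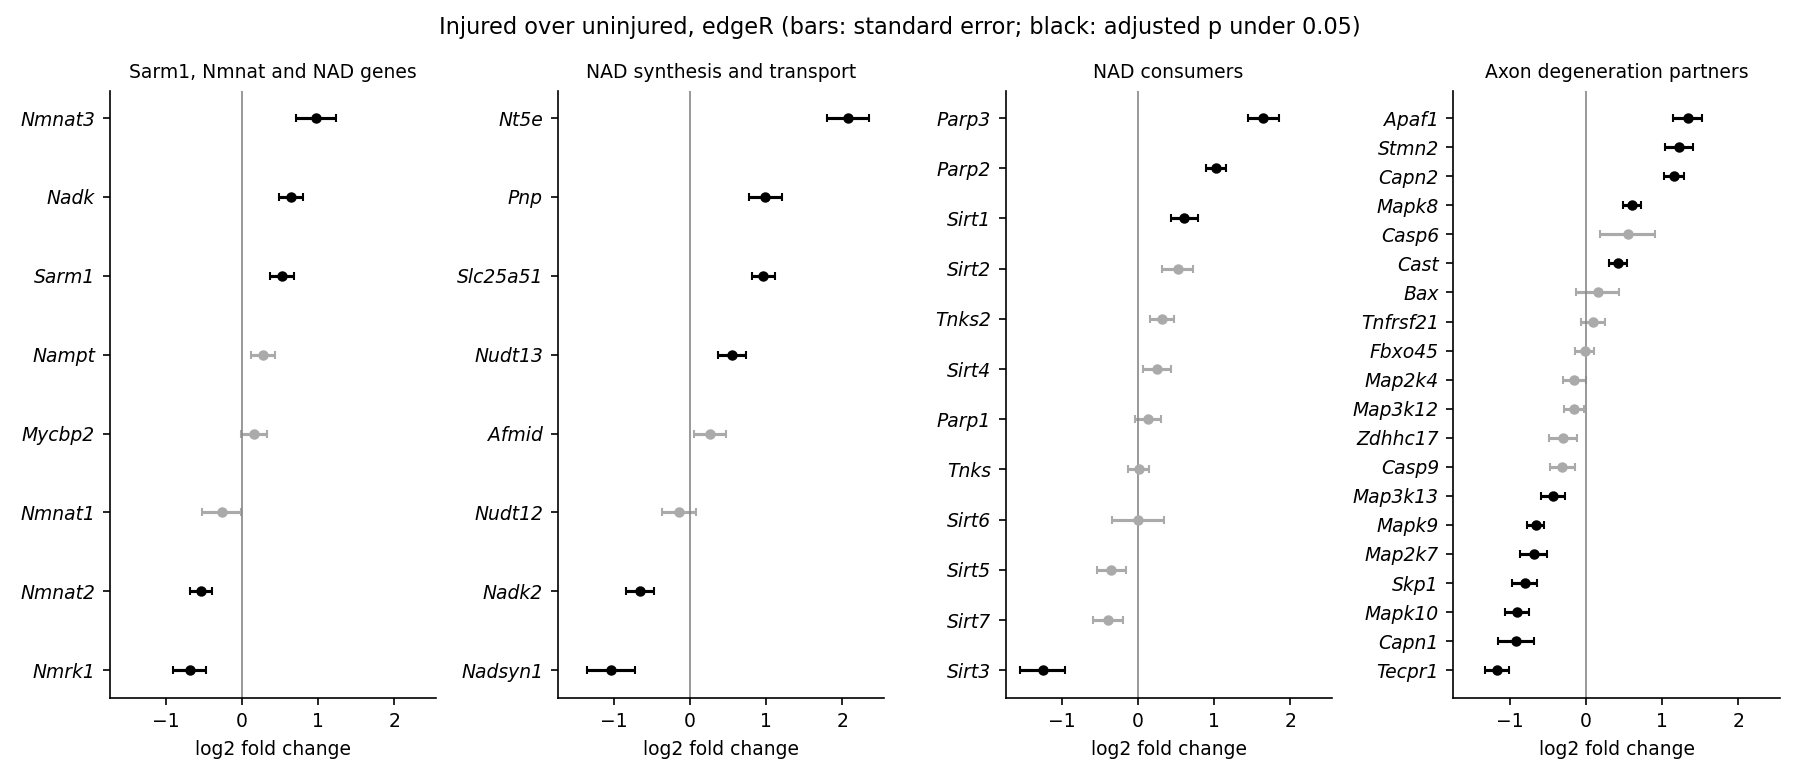
Log2 fold change of injured over uninjured for the 8 members tested and for tested genes of 3 pathway lists, with the standard error from edgeR as bars and genes with an adjusted p under 0.05 in black. Both directions occur in each panel, and Nt5e lies farthest from 0 at 2.07.

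Sarm1 and Nmnat2 act in opposite ways on axonal NAD, and they changed in opposite directions. Nmnat2 ran from 98.6 to 139 CPM in the uninjured samples, with a median of 123 CPM. Injured 1, 2 and 3/4 held 78.8, 86.2 and 87.0 CPM. Every injured sample lay below every uninjured sample. The mean fell from 122 ± 16.4 CPM (SD, n = 6) to 84 ± 4.54 CPM (n = 3), a log2 fold change of −0.54 ± 0.14 (SE, edgeR adjusted p = 0.00853; p = 0.0238 in an exact two-sided permutation test, in which no comparison of 6 with 3 samples can fall below this value). The decrease was seen against each pair of similar uninjured libraries, with a log2 difference of −0.56 for uninjured 1 and 2, −0.69 for the pair 3 and 4, and −0.32 for the pair 5 and 6. The call was kept without injured 3 and 4 (log2 fold change −0.54, edgeR adjusted p = 0.0338). It was lost without injured 1 and 2 (−0.48, adjusted p = 0.211), without injured 1 alone (−0.49, adjusted p = 0.0501) and when similar libraries were summed (−0.54, adjusted p = 0.0875), with the direction unchanged.

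Sarm1, in contrast, was higher after injury. It ran from 6.73 to 9.54 CPM in uninjured samples, with a median of 8.83 CPM. In injured 1, 2 and 3/4 it reached 13.0, 12.8 and 11.4 CPM, so the groups did not overlap. The mean rose from 8.49 ± 1.06 CPM to 12.4 ± 0.849 CPM, that is 43.5% higher by the fitted log2 fold change of 0.52 ± 0.16 (SE, edgeR adjusted p = 0.0194; exact permutation p = 0.0238). Against the pairs of uninjured libraries the log2 differences were 0.74, 0.38 and 0.46. Without injured 3 and 4 the log2 fold change was 0.60 (edgeR adjusted p = 0.0292). The call was lost without injured 1 and 2 (0.42, adjusted p = 0.306), without injured 1 (0.49, adjusted p = 0.0744) and without injured 2 (0.50, adjusted p = 0.0636). It was also lost in cells thinned to equal depth (0.26, adjusted p = 0.430), in cells whose Malat1 share was 3 to 5% (0.53, adjusted p = 0.234), with similar libraries summed (0.50, adjusted p = 0.170) and with no filter on low counts (0.52, adjusted p = 0.0555).

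The balance of both genes was then read as the ratio of their UMIs within each sample, which does not depend on how libraries are scaled. Uninjured samples held between 11.2 and 17.5 Nmnat2 UMIs for each Sarm1 UMI. Injured 1, 2 and 3/4 held 6.08, 6.74 and 7.63. On the log2 scale the ratio ran from 3.48 to 4.13 in uninjured samples, with a median of 3.86, and was 2.60, 2.75 and 2.93 in injured samples, without overlap. The mean dropped from 3.84 ± 0.24 (SD, n = 6) to 2.76 ± 0.16 (n = 3), a difference of −1.08, equal to 14.3 and 6.79 Nmnat2 UMIs per Sarm1 UMI. No test was made of this value. The difference was −1.16 without injured 3 and 4 and −0.91 without injured 1 and 2. It was smaller, and the groups overlapped, among cells whose Malat1 share was 3 to 5% (−0.74) and among cells thinned to 8000 UMIs each (−0.82). In both cases uninjured 5, at 2.42 and 2.86, was the only uninjured sample within or below the injured ones. The Malat1 range left 495 uninjured and 260 injured cells, but only 7 cells of uninjured 5 and 8 of uninjured 6, so the overlap there rests on 7 cells.

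**Figure D3:**
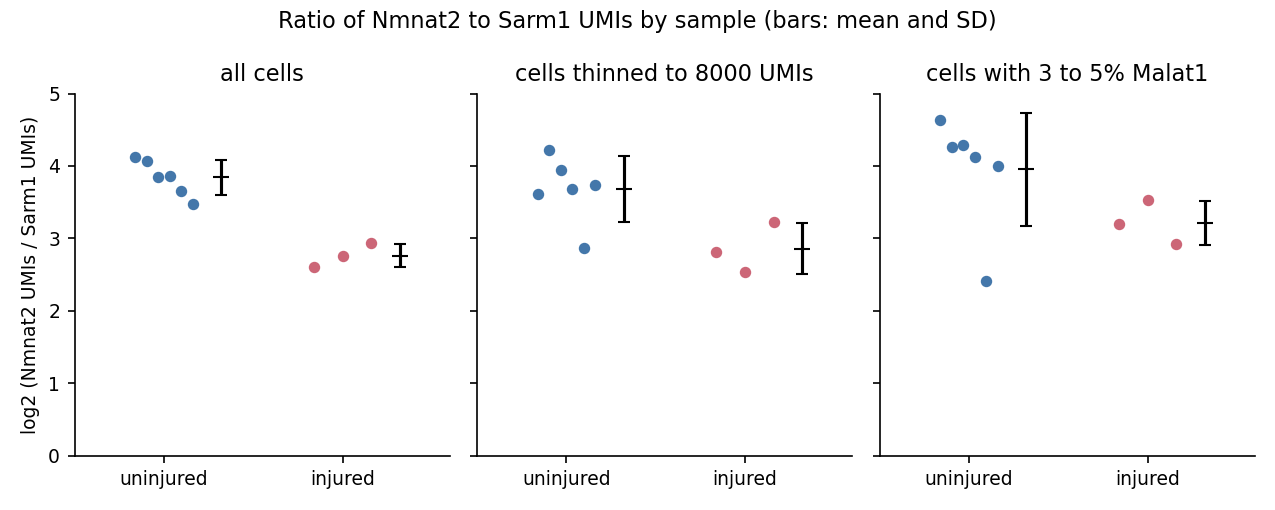
Log2 ratio of Nmnat2 to Sarm1 UMIs in each sample, with the mean and SD beside each group, from all cells, from cells thinned to 8000 UMIs and from cells whose Malat1 share was 3 to 5%. The groups are separate in all cells, at means of 3.84 and 2.76, and overlap under both restrictions.

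The promoter windows of Nmnat2 and Sarm1, which changed in opposite directions, and of Nadk, the other member whose samples did not overlap and whose window held a searched motif, are printed below in lower case. They come from RefSeq on GRCm38.p6, span 250 bases before to 50 bases after a start site, and lie at chr1:152954851-152955150 on the plus strand, chr11:78497705-78498004 on the minus strand and chr4:155563565-155563864 on the plus strand. Capitals mark TGACG or its reverse complement CGTCA, the 5-letter core of the cyclic AMP response element, in Nmnat2 and Sarm1, and the E-box CACGTG in Nadk.
Nmnat2: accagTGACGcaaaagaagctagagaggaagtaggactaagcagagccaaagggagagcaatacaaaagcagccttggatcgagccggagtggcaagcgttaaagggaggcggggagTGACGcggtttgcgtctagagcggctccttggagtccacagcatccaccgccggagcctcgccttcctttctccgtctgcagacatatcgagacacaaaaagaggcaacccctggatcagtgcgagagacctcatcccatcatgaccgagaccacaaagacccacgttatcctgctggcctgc
Sarm1: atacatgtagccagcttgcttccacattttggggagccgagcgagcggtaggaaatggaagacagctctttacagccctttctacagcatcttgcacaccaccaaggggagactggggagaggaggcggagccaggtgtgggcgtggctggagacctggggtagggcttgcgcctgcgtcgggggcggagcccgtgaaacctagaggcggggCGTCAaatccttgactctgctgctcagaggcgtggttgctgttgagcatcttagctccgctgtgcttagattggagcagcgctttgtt
Nadk: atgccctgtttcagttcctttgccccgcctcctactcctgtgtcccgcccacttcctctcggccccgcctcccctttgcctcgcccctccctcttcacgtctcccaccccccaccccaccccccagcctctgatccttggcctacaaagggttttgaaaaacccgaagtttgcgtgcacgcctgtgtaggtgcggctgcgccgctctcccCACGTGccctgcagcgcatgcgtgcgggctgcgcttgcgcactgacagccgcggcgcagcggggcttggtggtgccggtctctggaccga

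Of the 9 members, 7 had a window in the table, with 9 windows in all among 32851 windows of 27025 genes. Both strands were searched for 4 motifs of factors known from injured neurons and stressed cells. TGANTCA, the AP-1 motif, was held by 7.81% of all windows, TGACGTCA, the full cyclic AMP response element, by 1.79%, and TGATGNAA, the ATF4 and CHOP element, by 3.97%. None of the 9 member windows held any of these letters. CACGTG, held by 7.15% of all windows, was present in 1 of the Nadk windows, starting 40 bases before the start site. TGACG was added after the sequences had been seen; it is part of TGACGTCA and was held by 20.8% of all windows. Its matches began 245 and 133 bases before the start site in Nmnat2, 135 bases before it in Nampt and 38 bases before it in Sarm1. These matches describe letters only.

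The other Nmnat genes encode the nuclear enzyme, Nmnat1, and Nmnat3, an enzyme described in mitochondria. Nmnat3 ran from 2.21 to 4.04 CPM in uninjured samples, with a median of 3.12 CPM, and stood at 4.20, 6.51 and 7.25 CPM in injured 1, 2 and 3/4. Its groups did not overlap, although injured 1 lay only just above the highest uninjured sample. The mean rose from 3.09 ± 0.687 CPM to 5.99 ± 1.59 CPM, with a log2 fold change of 0.97 ± 0.26 (SE, edgeR adjusted p = 0.00965; exact permutation p = 0.0238). The change was larger in size than that of any other tested member, and Naprt was not tested. It rested on few molecules, 164 UMIs in uninjured and 161 in injured libraries, and the call was lost without injured 3 and 4 (0.82, edgeR adjusted p = 0.0638) and with similar libraries summed (1.03, adjusted p = 0.0576) but kept without injured 1 and 2 (1.25, adjusted p = 0.0364). For Nmnat1, uninjured samples ran from 3.31 to 6.40 CPM with a median of 5.06 CPM, and the injured samples held 4.73, 4.27 and 3.49 CPM, all inside the uninjured range. Its log2 fold change of −0.27 ± 0.26 did not pass the threshold (edgeR adjusted p = 0.424; exact permutation p = 0.405), which does not show that the level stayed the same, and it passed when only libraries 1 to 4 of each condition were compared (−0.50, adjusted p = 0.0413; −0.52 and 0.0579 with a replicate block), a fit that counts injured 3 and 4 as separate samples although they do not differ beyond noise. The 3 Nmnat genes thus differed in direction.

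Nampt, the rate-limiting enzyme that makes NMN from nicotinamide, was the most abundant member that makes NMN. Uninjured samples ran from 27.6 to 43.4 CPM, with a median of 38.1 CPM, and injured 1, 2 and 3/4 held 41.1, 45.1 and 45.3 CPM. Injured 1 lay within the uninjured range and the others above it. The means were 35.9 ± 6.71 CPM and 43.8 ± 2.34 CPM, and the tests differed: the log2 fold change of 0.28 ± 0.16 missed the threshold in edgeR (adjusted p = 0.183), and the exact permutation p was 0.0476. Compared within libraries 1 to 4 of each condition, Nampt passed the threshold (0.38, edgeR adjusted p = 0.0195; 0.41 and 0.0171 with a replicate block), but there injured 3 and 4 were counted as separate samples, which overstates the number of injured samples. The uninjured samples themselves were divided, since uninjured 1 and 2 averaged 27.7 CPM and uninjured 5 and 6 averaged 42.0 CPM. The log2 difference of the injured samples was 0.65 from the former and 0.06 from the latter.

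Nmrk1, a kinase that makes NMN from nicotinamide riboside, was lower after injury. It ran from 10.4 to 19.5 CPM in uninjured samples, with a median of 13.5 CPM, and stood at 7.35, 7.64 and 11 CPM in injured 1, 2 and 3/4. Injured 1 and 2 lay below every uninjured sample, whereas injured 3/4 lay above uninjured 1. The mean fell from 14.1 ± 3.06 CPM to 8.67 ± 2.03 CPM, a log2 fold change of −0.69 ± 0.22 (SE, edgeR adjusted p = 0.0229; exact permutation p = 0.0476). This call was the closest to the threshold among the 5. Without injured 3 and 4 the log2 fold change was −0.89 (adjusted p = 0.0169), and without injured 1 and 2 it was −0.35 (adjusted p = 0.494). The call was also lost without injured 1 (−0.57, adjusted p = 0.108), injured 2 (−0.60, adjusted p = 0.0948) or injured 3 (−0.58, adjusted p = 0.0712), each left out alone, in the last case with injured 4 standing for the pair. It was lost as well with similar libraries summed (−0.61, adjusted p = 0.147), in cells whose Malat1 share was 3 to 5% (−0.64, adjusted p = 0.226) and in libraries 1 to 4 of each condition (−0.44, adjusted p = 0.0582; −0.41 and 0.0683 with a replicate block), with injured 3 and 4 counted separately.

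Naprt, which starts NAD synthesis from nicotinic acid, held at most 6 UMIs in any library. Its level ran from 0 to 0.451 CPM in uninjured samples, with a median of 0.215 CPM, and was 0.525, 0.449 and 0.269 CPM in injured samples (exact permutation p = 0.143). Uninjured 2 and 6 held no Naprt UMI, which allows up to 0.841 and 0.680 CPM.

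Nadk, the cytosolic kinase that converts NAD to NADP, was higher after injury. Uninjured samples ran from 15.9 to 22.2 CPM, with a median of 17.1 CPM. Injured 1, 2 and 3/4 held 25.4, 23.4 and 33.3 CPM, above every uninjured sample. The mean rose from 17.7 ± 2.28 CPM to 27.3 ± 5.25 CPM, a log2 fold change of 0.64 ± 0.15 (SE, edgeR adjusted p = 0.00534; exact permutation p = 0.0238). The change was kept without injured 3 and 4 (0.49, adjusted p = 0.0371), without injured 1 and 2 (0.92, adjusted p = 0.0151) and in each fit that left out 1 library, where the log2 fold change ran from 0.62 to 0.74. Among cells whose Malat1 share was 3 to 5%, it was 0.59 (adjusted p = 0.0606).

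Mycbp2, a very large protein that forms a ubiquitin ligase with Fbxo45 and Skp1, was the most abundant member in both conditions. It ran from 311 to 463 CPM in uninjured samples, with a median of 443 CPM, and stood at 463, 436 and 457 CPM in injured samples. All 3 injured values lay within the uninjured range. The log2 fold change of 0.16 ± 0.17 did not pass the threshold (edgeR adjusted p = 0.484; exact permutation p = 0.405). Uninjured 5 and 6, at 319 and 311 CPM, stood below the other 4 uninjured samples, which held 442 to 463 CPM. The log2 difference was 0.52 from uninjured 5 and 6 but 0.03 and −0.02 from the other uninjured pairs, so its sign depended on the libraries compared.

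The share of cells with at least 1 UMI was compared after each cell was thinned to 8000 UMIs, which kept 1654 of 1683 uninjured and 1376 of 1609 injured cells. As references for free RNA, 2 rod genes that RGCs should lack were used, chosen after the data had been seen. Gnat1 had a UMI in 0.158 ± 0.316% of thinned uninjured cells (SD, n = 6) and in 0.133 ± 0.230% of injured cells (n = 3), and in 0.609% and 0.244% before thinning. Pdc had one in 0.249 ± 0.475% and 0.266 ± 0.460% of thinned cells, and in 0.604% and 0.366% before thinning. Naprt, at 0.118 ± 0.223% and 0.446 ± 0.496% of thinned cells (0.662% and 0.639% before thinning), overlapped with both references in each condition and cannot be told apart from free RNA. Its share averaged over all draws of 8000 UMIs was 0.143% and 0.419%, without overlap between conditions (exact permutation p = 0.0238), and rested on 23 UMIs in all. The mean of every other member lay above Gnat1 and Pdc in each condition, but other rod genes could be more frequent. Sag was present in 2.12 ± 0.615% of thinned uninjured and 1.15 ± 1.09% of thinned injured cells. Pde6b was present in 0.144 ± 0.237% and 6.43 ± 0.897%, so unlike Sag it was higher after injury, for a reason that was not tested. In injured cells, Nmnat1 and Nmnat3 lay below Pde6b, and Nmrk1 and Sarm1 overlapped with it. The shares of these 4 genes in injured cells are thus not clearly above that of Pde6b. All 4 lay above Sag there (0.327 to 2.39%), and whether Pde6b reflects free RNA was not tested. In uninjured cells, Sarm1 (4.90 to 9.47%) and Nmrk1 (4.21 to 14.5%) lay above Sag (1.05 to 2.77%). Nmnat1 (2.37 to 5.43%) and Nmnat3 (1.05 to 3.92%) overlapped with Sag there. Nmnat2 was present in 58.4 ± 5.85% of thinned uninjured cells and in 43.0 ± 1.37% of injured cells, without overlap (exact permutation p = 0.0238). Before thinning the shares were 88.7% and 58.4%. Mycbp2 had a UMI in 92.4 ± 4.45% and 95.7 ± 1.19% of thinned cells, and in 99.5% and 98.2% before thinning.

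Sarm1 had a UMI in 7.36 ± 1.89% of thinned uninjured and 8.54 ± 1.44% of thinned injured cells, and the samples overlapped (exact permutation p = 0.333). Before thinning, its share was 20.6% in uninjured and 16.4% in injured cells, the opposite order to its CPM, which depth alone can produce. When the share was instead averaged over all possible draws of 8000 UMIs, an alternative added after the data had been seen, it was 6.55% and 8.59% (exact permutation p = 0.0714). At 5000 UMIs per cell it was 3.65% and 5.80% (exact permutation p = 0.0238). The share of Nadk was 12.8 ± 1.76% and 17.5 ± 2.88% of thinned cells, with overlap (exact permutation p = 0.0476), against 37.7% and 32.0% before thinning. For Nmnat3 it was 2.16 ± 1.11% and 4.23 ± 1.10%, with overlap (exact permutation p = 0.0476), against 7.11% and 7.54% before thinning. Nampt, at 23.8 ± 5.58% and 27.6 ± 1.11%, overlapped between conditions (exact permutation p = 0.238; 55.7% and 42.7% before thinning). Nmrk1, at 10.9 ± 3.76% and 6.83 ± 1.77%, also overlapped (exact permutation p = 0.143; 30.7% and 11.9% before thinning), but averaged over all draws of 8000 UMIs it was 10.4% and 6.08%, without overlap (exact permutation p = 0.0238). Nmnat1 stood at 3.45 ± 1.12% and 3.54 ± 0.0863% of thinned cells (exact permutation p = 0.857; 13.2% and 6.48% before thinning).

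**Figure D4:**
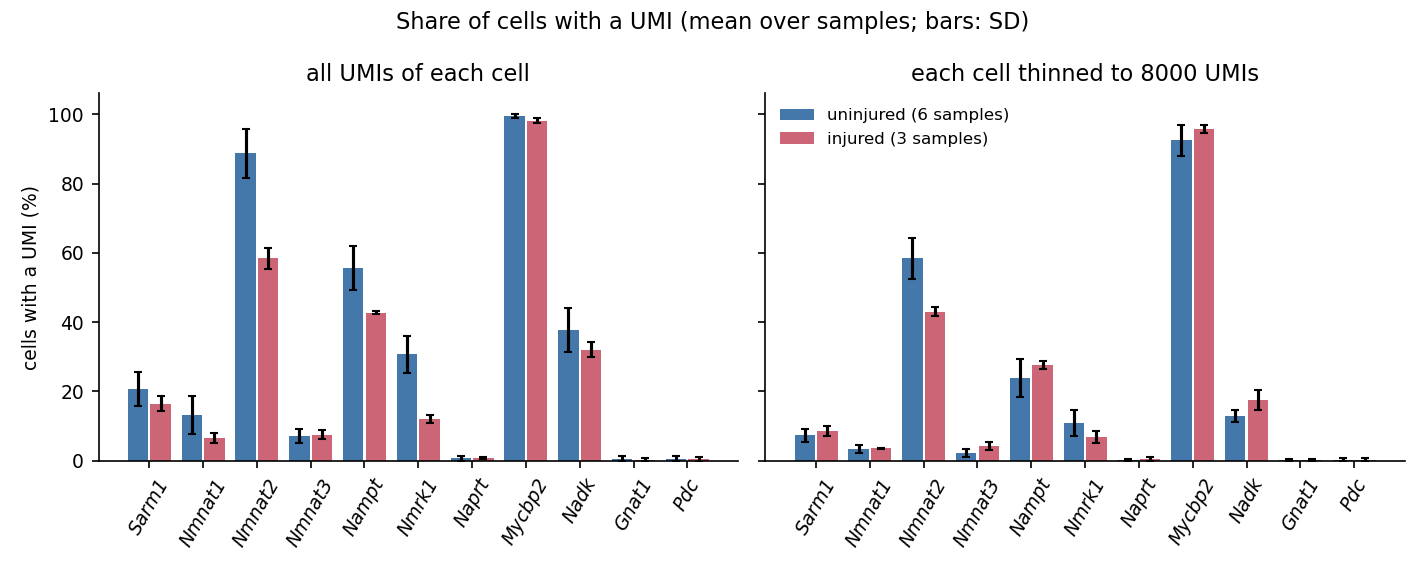
Share of cells with at least 1 UMI of each member and of the rod genes Gnat1 and Pdc, in percent, as the mean over 6 uninjured (blue) and 3 injured (red) samples with the SD as bars, from all UMIs of each cell and after thinning to 8000 UMIs. Nmnat2 falls from 58.4 to 43.0% at equal depth, whereas Sarm1, Nampt and Nadk are lower in injured cells before thinning and higher after it.

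At this depth most cells held no Sarm1 UMI, so the detection of both genes in a cell was also counted. UMIs of both Nmnat2 and Sarm1 were present in 4.53 ± 1.20% of thinned uninjured cells and 3.49 ± 2.35% of injured cells. Nmnat2 alone was detected in 53.8 ± 4.91% and 39.5 ± 2.35%, and Sarm1 alone in 2.83 ± 1.49% and 5.05 ± 2.88%. Cells with neither gene made up 38.8 ± 5.30% and 51.9 ± 3.45%. The shares with Nmnat2 alone and with neither gene did not overlap between the conditions.

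To place the members in their pathways, 3 lists of related genes were counted. The lists were chosen with earlier results of these data known, so their shares beside all genes are no independent comparison. Of 19 genes of NAD synthesis and transport, 8 were tested and 11 were too low, with at most 92 UMIs each in all libraries. Of the 8, 6 passed the threshold (75%, beside 44% of all genes), 4 higher and 2 lower in injured samples, 5 did not overlap between conditions (62.5%, beside 42.9% of all genes), and the median log2 fold change was 0.41. Nt5e, an ectoenzyme that degrades nucleotides, rose from 1.61 ± 0.598 CPM to 7.45 ± 0.824 CPM (log2 fold change 2.07 ± 0.28, edgeR adjusted p = 8.82e-05). Slc25a51, which carries NAD into mitochondria and was the most abundant gene of this list, rose from 33.2 ± 5.40 CPM to 64.5 ± 5.82 CPM (0.96 ± 0.15, adjusted p = 0.000255). Pnp, a nucleoside phosphorylase, was also higher (0.99), as was Nudt13, a hydrolase of NADH (0.55). Nadsyn1, the last enzyme of synthesis from nicotinic acid, was lower (−1.04), and so was Nadk2, the mitochondrial NAD kinase (−0.66), while cytosolic Nadk was higher. Without injured 2, Nadsyn1 (−0.77, adjusted p = 0.0760) and Nudt13 (0.53, adjusted p = 0.0838) missed the threshold. In cells whose Malat1 share was 3 to 5%, Nt5e and Nadsyn1 could not be tested. Of the 6 genes tested there, 1 was called, Slc25a51, beside 3528 of 10725 genes. Pnp (0.36, adjusted p = 0.564), Nudt13 (0.36, adjusted p = 0.389) and Nadk2 (−0.78, adjusted p = 0.113) missed the threshold in that range. Leaving out injured 3 and 4 gave 3 calls among 9 genes tested, all higher, beside 5075 of 14386 genes. With similar libraries summed, 3 of 11 genes tested were called, all higher, beside 4181 of 15454. In that fit Nadsyn1 (edgeR adjusted p = 0.0548), Nadk2 (adjusted p = 0.0610) and Nudt13 (adjusted p = 0.0865) missed the threshold. The share of the list was thus close to that of all genes in both fits.

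Of 15 genes that consume NAD, 12 were tested and 4 passed the threshold (33.3%, beside 44% of all genes), 3 higher and 1 lower, with 5 not overlapping (41.7%, beside 42.9%) and a median log2 fold change of 0.19. The 3 higher genes were Parp3 (1.65 ± 0.20, edgeR adjusted p = 4.98e-05), Parp2 (1.02 ± 0.13, adjusted p = 6.12e-05) and the deacetylase Sirt1 (0.61 ± 0.18, adjusted p = 0.0154). Parp2 and Parp3 are DNA-damage-dependent ADP-ribosyltransferases. Parp2 rose from 14.6 ± 1.48 CPM to 29.6 ± 2.53 CPM and Parp3 from 3.54 ± 0.556 CPM to 11.2 ± 2.39 CPM. Sirt3, the mitochondrial deacetylase, fell from 70.2 ± 27.1 CPM to 29.6 ± 2.87 CPM (−1.25 ± 0.29, adjusted p = 0.00453). Tnks, the most abundant consumer, stood at 112 ± 13.8 CPM and 113 ± 10.7 CPM, with a log2 fold change of 0.01 whose sign changed with the scaling. Parp1, the most studied of the family, had a log2 fold change of 0.13 (adjusted p = 0.565), and Sirt2 narrowly missed the threshold (0.52, adjusted p = 0.0524). Without injured 1, Sirt1 missed the threshold (0.60, adjusted p = 0.0551). In cells whose Malat1 share was 3 to 5%, Sirt1 (0.34, adjusted p = 0.475) and Sirt3 (−0.54, adjusted p = 0.0673) missed it, and both did so without injured 1 and 2 (0.63, adjusted p = 0.166 and −1.38, adjusted p = 0.102). The count of calls was 4 of 12 without injured 3 and 4, beside 5075 of 14386 genes. With similar libraries summed it was 3 of 12, beside 4181 of 15454 genes, and Sirt1 missed the threshold (edgeR adjusted p = 0.0887).

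Of the 22 symbols of axon degeneration partners, 21 were in the files and all 21 were tested. Of these, 13 passed the threshold (61.9%, beside 44% of all genes), 6 higher and 7 lower, 12 did not overlap (57.1%, beside 42.9%), and the median log2 fold change was −0.15. Apaf1, which assembles the apoptosome, rose from 14.6 ± 3.83 CPM to 36.5 ± 5.70 CPM (log2 fold change 1.33 ± 0.20, edgeR adjusted p = 0.000194). Stmn2, a tubulin-binding protein that is lost early from degenerating axons and the most abundant gene of the list, rose from 1049 ± 145 CPM to 2445 ± 475 CPM (1.22 ± 0.18, adjusted p = 0.000190). The calpain genes parted, with Capn2 higher (1.16) and Capn1 lower (−0.92), and their inhibitor Cast was higher (0.42). In cells whose Malat1 share was 3 to 5%, Capn1 (−0.63, adjusted p = 0.125) and Cast (0.42, adjusted p = 0.128) missed the threshold, as Cast did in thinned cells (0.26, adjusted p = 0.205). Of the partners of Mycbp2, Skp1 fell from 247 ± 44.2 CPM to 141 ± 2.58 CPM (−0.80 ± 0.17, adjusted p = 0.00219), and Fbxo45 had a log2 fold change of −0.01 (adjusted p = 0.943). Without injured 1 and 2, Skp1 had a log2 fold change of −0.80 and missed the threshold.

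The same list holds the kinase cascade that is known to lower Nmnat2 protein in injured axons. Its upper kinases are Map3k12 (DLK) and Map3k13 (LZK). Map3k13 was lower (−0.43 ± 0.16, edgeR adjusted p = 0.0433), and Map3k12 missed the threshold (−0.15, adjusted p = 0.370). The Map3k13 call was lost without any of 7 libraries, uninjured 1, 2, 3 and 4 and injured 1, 2 and 4, each left out alone, with log2 fold changes from −0.45 to −0.35 and adjusted p from 0.0602 to 0.163. In thinned cells it was −0.15 (adjusted p = 0.537). Among the kinases between, Map2k7 was lower (−0.68 ± 0.18, adjusted p = 0.00857; −0.54 and 0.0530 without injured 2; −0.29 and 0.364 in the Malat1 range), and Map2k4 missed the threshold (−0.15, adjusted p = 0.437). The JNK genes did not share a direction. Mapk8 rose from 51.3 ± 5.52 CPM to 78.4 ± 2.15 CPM (0.60 ± 0.12, adjusted p = 0.00159). Without injured 1 and 2, its log2 fold change was 0.61 and missed the threshold. Mapk9 fell from 105 ± 5.35 CPM to 66.4 ± 3.34 CPM (−0.66 ± 0.11, adjusted p = 0.000468), and Mapk10 fell from 348 ± 42.0 CPM to 186 ± 23.2 CPM (−0.90 ± 0.16, adjusted p = 0.000595). Zdhhc17, a palmitoyltransferase that acts on Nmnat2, had a log2 fold change of −0.30 (adjusted p = 0.200), and Tecpr1, an autophagy protein, was lower (−1.17). For the whole list, 12 of 20 genes tested were called without injured 3 and 4, beside 5075 of 14386 genes. With similar libraries summed, 9 of 21 were called, 5 higher and 4 lower, beside 4181 of 15454 genes. In that fit Map3k13 (edgeR adjusted p = 0.21), Map2k7 (adjusted p = 0.0627), Capn1 (adjusted p = 0.0572) and Cast (adjusted p = 0.118) missed the threshold.

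Genes with the most similar pattern were sought among 8310 genes of at least 4 in average log2 CPM, as the smallest root mean square difference of log2 CPM, centred on the mean of each gene, over the 9 samples. For Nmnat2 these were Tmed8 (0.0762), Ptpn4 (0.0798) and Far2 (0.0828). The nearest to Sarm1 were Qrich1 (0.0766), Cep43 (0.0912) and Gle1 (0.0952). Nampt was closest to Ddb1 (0.0767), Lysmd4 (0.0890) and Pdp1 (0.101). Ptpn4 fell from 211 ± 23.7 CPM to 141 ± 1.27 CPM and Qrich1 rose from 47.8 ± 3.95 CPM to 71.2 ± 5.29 CPM, alike in direction to Nmnat2 and Sarm1 by the choice of the measure.

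Finally, the members were compared between kinds of uninjured RGC, picked by the UMIs of marker genes in a cell. The classes were cells with at least 2 UMIs of Opn4 (59 cells), Eomes (122), Foxp2 (349), Tbr1 (101) or Tfap2d (333), or with at least 5 UMIs of Cartpt (678), in libraries with at least 5 such cells. Cells with both Spp1 and Kcng4 were too few in every library. A class was compared with the other cells of the same library, and no test was made. Of 54 pairs of class and gene, 5 had the same direction in every library, 3 higher and 2 lower. The share over all genes was not counted, so whether 5 of 54 is more than usual is not known. In Opn4 cells, which include the melanopsin RGCs, Nmnat2 was 166 ± 20.2 CPM (SD, n = 6) against 122 ± 22.0 CPM, and Nmrk1 was 24.0 ± 7.29 CPM against 13.7 ± 2.55 CPM. Nmrk1 was also higher in Eomes cells, at 16.9 ± 4.08 CPM against 13.9 ± 2.51 CPM, and the Opn4 and Eomes classes share cells. The Nmrk1 values rested on 52 UMIs in Opn4 cells and 77 in Eomes cells. In uninjured 2, the Eomes difference was slight, at 13.2 against 13.1 CPM. Cartpt cells, which include direction-selective RGCs, held less Nmnat2, at 107 ± 22.9 CPM against 136 ± 26.9 CPM, lower in 6 of 6 libraries. Foxp2 cells held less Nampt, at 29.0 ± 6.46 CPM against 37.9 ± 6.52 CPM. Sarm1 was higher in Foxp2 cells in 5 of 6 libraries, at 11 ± 2.76 CPM against 8.12 ± 1.39 CPM, and had no common direction in Opn4 cells, where it rested on 26 UMIs. Picked cells were deeper. The median over libraries of the median UMIs per cell was 31320 in Opn4 cells against 28814 in the others. It was 32749 against 28613 for Eomes, 30048 against 28561 for Foxp2 and 32517 against 29697 for Tbr1. For Cartpt it was 32289 against 26515, and for Tfap2d 38424 against 28294.

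**Figure D5:**
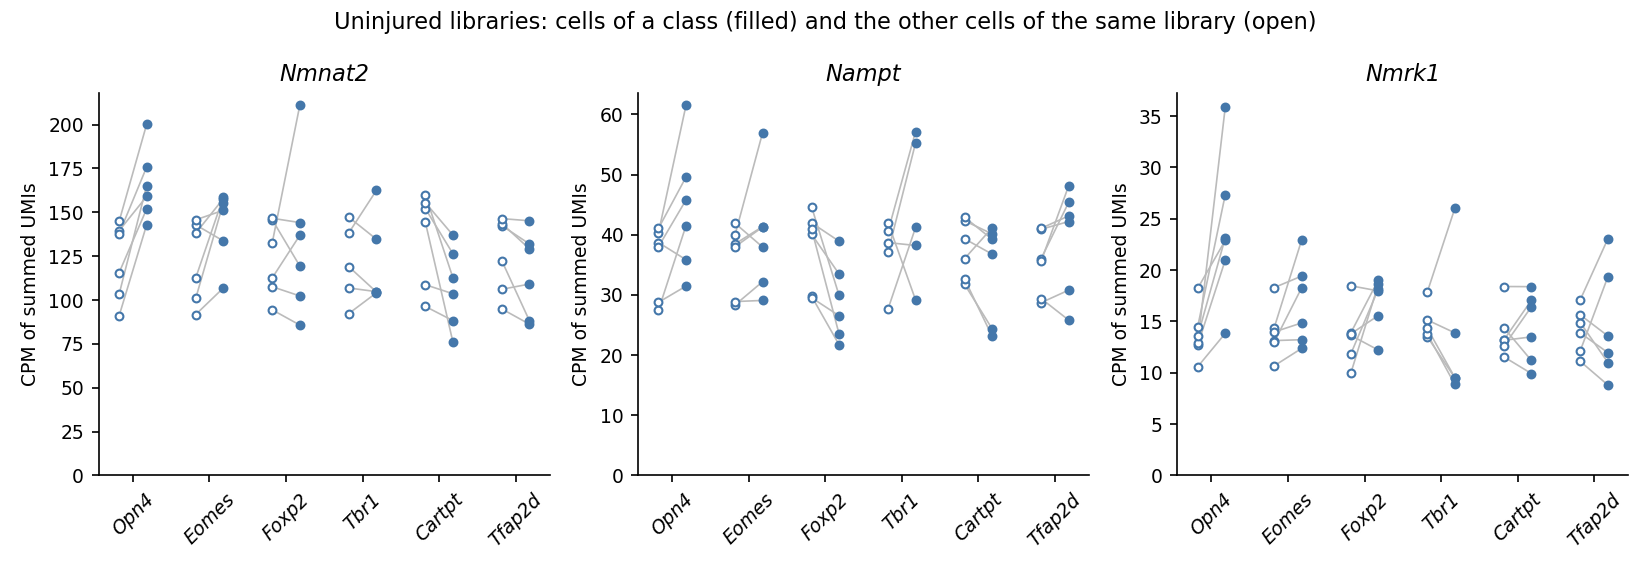
CPM of Nmnat2, Nampt and Nmrk1 in uninjured cells picked by a marker gene (filled) and in the other cells of the same library (open), with a line for each library. Nmnat2 is higher in Opn4 cells and lower in Cartpt cells in each of 6 libraries, and Nampt is lower in Foxp2 cells in each of 6.

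The members do not lie together in the genome: on GRCm39 they are on 8 chromosomes, and Nmnat1 and Nadk are both on chromosome 4. Sarm1 spans chr11:78361100-78388641 on the minus strand and Nmnat2 spans chr1:152830695-152995011 on the plus strand. Nadk lies at chr4:155646806-155675465, Nmrk1 at chr19:18608774-18629831 and Nmnat3 at chr9:98169483-98302816, all on the plus strand. Where a gene overlaps another, or shares sequence with it, the deposited counts could have been split between them. Naprt overlaps Eef1d on the same strand, which held 2960 UMIs. On the opposite strand, Sarm1 overlaps Slc46a1, Nmnat1 overlaps Lzic and Tmem274, Nmnat2 overlaps Gm28960, Nmrk1 overlaps Ostf1 and Mycbp2 overlaps 1700087I21Rik. Overlapping annotated genes that are not in the count tables were not used here. In the last 600 bases of the annotated transcripts, 6 of 38 stretches of 60 bases of Nmrk1 and 1 of 57 of Nmnat2 were also present in transcripts of other genes, and none were for the other 7 members. By same-strand overlap with counted genes and by shared stretches alone, the levels of Naprt and Nmrk1 are the least certain. Other limits, such as few UMIs, were not compared with these.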

How the data were processed

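The deposited files hold counts: whole numbers of UMIs per gene and cell, made by the authors with Cell Ranger 7.0.1 on mm39, per the submitters' processing notes. The methods of the paper name an earlier Cell Ranger version, kit chemistry and sequencer than the labels, and a removal of amacrine cells that the labels do not name, so these steps are uncertain. The labels also describe the cells both as immunopanned and as sorted. All 1683 uninjured and 1609 injured cells in the files were used; the paper gives a lower number of injured cells after quality control, and which cells it kept is not known here. Doublets were not called again.

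UMIs were summed per library, and injured 3 and 4 were averaged as 1 sample. Genes were tested with edgeR 4.0.16 in R 4.3.3 (filterByExpr, TMM factors, robust quasi-likelihood fit, adjusted p under 0.05). CPM of members and listed genes are per TMM-scaled totals of the tested genes, and those of summed markers and of classes are per all UMIs of the cells concerned. Exact two-sided permutation tests used log2 CPM with a pseudocount of 0.5, or shares of cells. The depth of each library is given in the report. Cells were thinned to 8000 UMIs with seed 11. Alternatives covered DESeq2 1.42.0, limma-voom 3.58.1, scaling, filters on genes and cells, thinning, grouping of libraries and leaving out each library. Python 3.11.15, numpy 2.4.6, scipy 1.17.1, pandas 2.3.3 and matplotlib 3.10.9 were used, and the scripts were tested on simulated data.

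Named genes are the members, the genes of the 3 lists past the threshold, the most abundant gene of a list, genes of a pathway step given beside its partner, cell-type markers and the nearest genes in pattern; 1 gene of a list and 1 marker, which are within the counts, are not reported here. The members and lists were chosen with earlier results of these data known. Gene positions are from GENCODE vM39 on GRCm39, and promoter windows are from RefSeq on GRCm38.p6.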

Additional observations from a re-analysis of the deposited data

Results flagged for a closer look

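Each group of 6 uninjured values was examined for a sample far from the others, a rule that marks about 1 in 20 groups by chance. Of 43 groups, 2 were marked. Nadk stood at 22.2 CPM in uninjured 6, and the other uninjured samples held 15.9 to 17.5 CPM. The thinned share of cells with a Naprt UMI was 0.556% in uninjured 3 and 0 to 0.155% in the others, a gap that rests on a few UMIs.

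The reporter mCherry is a signal outside the genes compared above, where results were also given without the injured libraries that differ in it. Cells with an mCherry UMI made up 7.99% of injured 1, 15.0% of injured 2, 86.0% of injured 3 and 84.3% of injured 4, and no cell of the uninjured libraries held one. What the reporter marks is not stated in the labels.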

How the results depend on the processing

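Of the 5 members called, each kept its direction in all 28 alternative fits that tested it. The number past the threshold was 3 of 6 tested in cells thinned to 8000 UMIs, beside 4893 of 11992 genes. In cells whose Malat1 share was 3 to 5% it was 1 of 6, beside 3528 of 10725 genes. The number was 1 of 8 with similar libraries summed, and 2 to 5 without 1 library. In libraries 1 to 4 of each condition, where injured 3 and 4 count as separate samples and the injured samples are thus overcounted, it was 6, with Nampt and Nmnat1 gained and Nmrk1 lost, and 5 with a replicate block, with Nampt gained and Nmrk1 lost. Nmnat3 could not be tested in the thinned or Malat1-restricted cells. Over all genes, 6256 were past the threshold, 3528 in the Malat1 range, 3160 without injured 1 and 2, 4181 of 15454 with similar libraries summed, 8262 with limma-voom, and 4961 to 6420 without 1 library. Where 1 injured sample was left, it was assumed to vary like the others. Except for fewer samples or cells, the cause was not tested.

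Sarm1 missed the threshold with no filter (0.52), thinned (0.26), in the Malat1 range (0.53), with similar libraries summed (0.50) and without injured 1 and 2 (0.42), and ran from 0.49 to 0.58 without 1 library. Nmnat2 missed it with similar libraries summed (−0.54) and without injured 1 and 2 (−0.48), and ran from −0.59 to −0.48 without 1 library. The Nmnat2 to Sarm1 balance was −0.74 in the Malat1 range and −0.82 thinned, and −1.15 to −1.0 without 1 library.

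Mycbp2 turned to −0.00709 without and −0.00697 with a replicate block in libraries 1 to 4. Tnks turned to −0.0934 with limma-voom, −0.0431 with upper-quartile factors, −0.0679 with library totals, −0.00681 with at least 10 counts in every sample, −0.0265 without cells with other markers, −0.0193 in the Malat1 range, −0.0228 without injured 3 and 4, and −0.0728 and −0.0689 in the fits of libraries 1 to 4, and ran from −0.0373 to 0.0894 without 1 library. The cause was not tested.

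Without thinning, the difference in the share of cells, injured minus uninjured in percentage points, turned to −4.14 for Sarm1, −6.67 for Nmnat1, −13.0 for Nampt, −0.0229 for Naprt, −1.34 for Mycbp2 and −5.69 for Nadk, with injured cells at lower depth. At 5000 UMIs it was 2.15 for Sarm1, now past the threshold, and −1.08 for Nmnat1, also past it, whereas Nmnat3, at 1.25, was no longer past it. Averaged over all draws, it was −0.612 at 8000 and −0.426 at 5000 UMIs for Nmnat1, 1.24 at 5000 UMIs for Sarm1, past the threshold, and 2.21% against 4.59% at 8000 and 1.40% against 2.95% at 5000 UMIs for Nmnat3, without overlap (exact permutation p = 0.0238 for both). Averages over all draws, and the balance without libraries, were chosen after seeing the data.

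Calls in the lists ran from 1 to 7 for NAD synthesis and transport, 2 to 6 for NAD consumers and 7 to 16 for axon degeneration partners over all alternatives. With the library number as a replicate block in libraries 1 to 4, 7782 genes were past the threshold and 8230 without the block, and Nmnat2 had a log2 fold change of −0.63. Libraries of the same number correlated at −0.0592, 0.0119, −0.0454 and −0.0517 after each group mean was removed, so the numbers do not pair. Genes with few UMIs, Naprt above all, are limited by depth.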
